A study of Mus musculus with 18 samples.

Results

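The 10 genes described here are Atf4, Ddit3, Asns, Chac1, Trib3, Fgf21, Gdf15, Psat1, Phgdh and Ppp1r15a, which belong to the integrated stress response. They were chosen by name as the rows of the deposited liver count table whose Ensembl identifiers carry these symbols, and all 10 were found among 37620 genes. Messenger RNA was sequenced from the flash-frozen livers of 18 female mice in 3 groups of 6, each library being taken as 1 animal. Old mice were 24 months of age at sampling and received either ouabain, a cardiac glycoside that blocks the Na,K-ATPase, at 1 mg/kg, or saline vehicle. Dosing began at 21 to 22 months of age and lasted 12 weeks. It alternated a week of 4 treatments with 2 weeks of rest, with sampling of the liver 3 days after the final round. Young mice were 7 weeks of age and were given no treatment, so age and handling differed together in every comparison with them. The design describes 16 old mice, of which 12 are analysed here, and the sources used here give neither the strain nor how those 12 were selected.

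The integrated stress response begins when 1 of a small family of kinases (PERK, GCN2, PKR or HRI) phosphorylates the translation initiation factor eIF2. Most protein synthesis then slows, while the mRNA of the transcription factor ATF4 is translated more, so the pathway is controlled in large part at the level of translation and phosphorylation, which an mRNA count does not measure. ATF4, alone or with partners such as CHOP (Ddit3) and C/EBP proteins, binds composite C/EBP-ATF response elements in genes for amino acid supply and stress adaptation, and the liver is a main source of the circulating hormone FGF21 made in this response.

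Promoter windows were searched for the letters of the C/EBP-ATF response element, and binding of ATF4 was not measured. RefSeq windows on build GRCm38.p6, from 250 bases before to 50 bases after each annotated start, were found for all 10 genes, 12 windows in all because Gdf15 and Psat1 have 2 each. The C/EBP-ATF response element was searched as TGATGNAA on both strands and occurred in 4 of the 12 windows, those of Asns, Chac1, Trib3 and Fgf21, and in 3.97% of all 32851 RefSeq windows. In the stretches below, written 5′ to 3′ on the gene's own strand, capitals mark that element, which reads in the sense direction in Asns and in reverse complement in the other three. The Asns stretch is chr6:7693210-7693282 (minus strand), Chac1 chr2:119350999-119351106 (plus strand), Trib3 chr2:152344028-152344057 (minus strand) and Fgf21 chr7:45615572-45615679 (minus strand).
Asns: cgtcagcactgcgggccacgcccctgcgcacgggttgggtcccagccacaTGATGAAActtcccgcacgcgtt
Chac1: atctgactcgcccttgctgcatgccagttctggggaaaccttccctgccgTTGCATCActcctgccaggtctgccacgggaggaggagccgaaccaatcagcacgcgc
Trib3: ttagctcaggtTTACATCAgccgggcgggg
Fgf21: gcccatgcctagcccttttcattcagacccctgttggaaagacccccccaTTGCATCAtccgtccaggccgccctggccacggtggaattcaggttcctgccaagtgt
The element lies at -23 to -16 relative to the annotated start in Asns, at -193 to -186 in Chac1, at 15 to 22 in Trib3 and at -139 to -132 in Fgf21. A different element, the cAMP response element TGACGTCA, which reads the same on both strands, stood at -12 to -5 of Ppp1r15a and in 1.79% of all windows. It is marked by capitals in the stretch chr7:45526269-45526330 (minus strand).
Ppp1r15a: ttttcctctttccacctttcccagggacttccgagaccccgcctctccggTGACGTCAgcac
The endoplasmic reticulum stress element, CCAAT and CCACG separated by 9 bases, was in none of the 12 windows and in 0.119% of all windows. A match describes these letters only, and an element outside the windows was not looked for.

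The shallowest library (old ouabain replicate 5) held 4201251 counts and the others 7527846 to 11113307, and 14226 genes had enough counts to be tested. All 8 hepatocyte markers examined were detected in every group. Their summed level was 92849 to 154175 CPM (counts scaled to a common library size with TMM factors) per liver. Of 10 exocrine pancreas markers, 4, 5 and 4 were detected in young, vehicle and ouabain livers (summed 9.93 to 22.8 CPM per liver). Among the 10, Cpa1, Cpb1, Ctrb1 and Pnlip had no count in any liver. Markers of immune cells were higher in the old livers. Between young and vehicle livers 10.9% of tested genes rose. So did 10 of 12 macrophage and 7 of 9 tested lymphocyte and plasma cell markers. Between young and ouabain livers, 2 of 12 and 4 of 9 of these markers rose, where 1.12% of tested genes passed in either direction. The summed level of 12 macrophage markers was 226 to 346 CPM in young livers, 453 to 1741 CPM in those given vehicle and 331 to 959 CPM in those given ouabain, and that of 10 lymphocyte and plasma cell markers was 8.09 to 14.5, 114 to 215 and 55.9 to 170 CPM. In bulk tissue, fewer cells of a type and less RNA per cell cannot be told apart, and the part of these cell types in the results below was not tested.

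Most of the 10 genes were scarce in these livers, and their order of abundance was led by the transcription factor at the head of the pathway. Scaled by exon length, Atf4 was at 41.7 ± 4.27 CPM per kb over the 18 livers (SD, n = 18), followed by Trib3 at 4.36 ± 1.98, Ddit3 at 3.76 ± 0.727, Ppp1r15a at 3.26 ± 0.590 and Gdf15 at 2.20 ± 0.527 CPM per kb. Chac1 stood at 1.22 ± 0.511, Fgf21 at 0.937 ± 0.691, Asns at 0.320 ± 0.264, Phgdh at 0.226 ± 0.160 and Psat1 at 0.183 ± 0.125 CPM per kb. The step from Atf4 to Trib3 exceeded the spread of both genes, and between all other neighbours in that order the ranges of mean ± SD overlapped. The 4 lowest genes, Fgf21, Asns, Phgdh and Psat1, did not pass the filter on low counts, so 6 of the 10 entered the fit across genes.

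**Figure D1:**
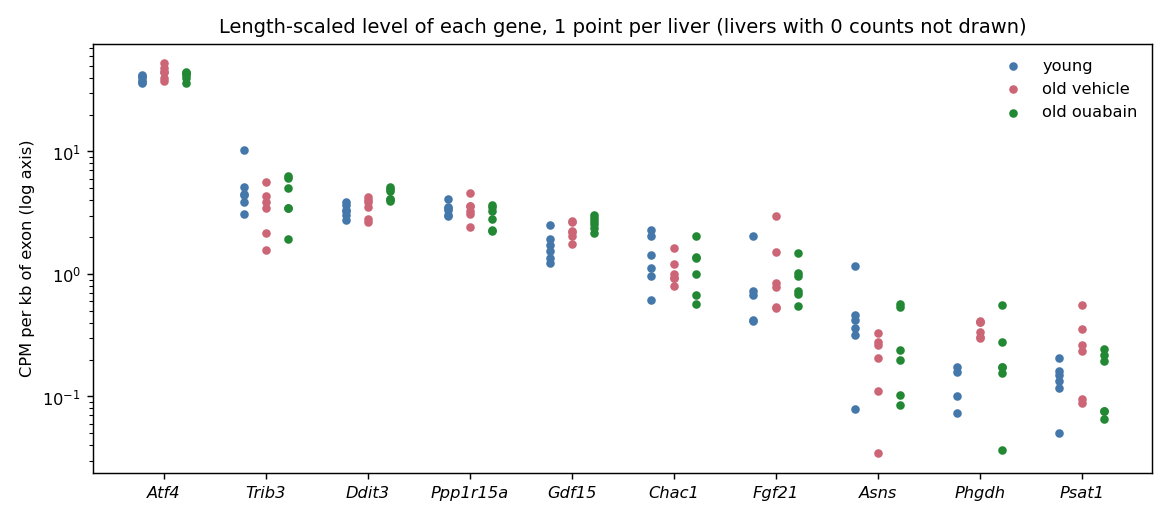
Level of each gene in every liver, in CPM per kb of exon on a log axis, with 1 point per liver coloured by group and genes ordered by their mean over 18 livers. Atf4 lies apart at the top with a mean of 41.7 CPM per kb, and Psat1 is lowest at 0.183 CPM per kb; livers with 0 counts, such as 2 young livers for Phgdh, are not drawn.

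None of the 6 genes tested passed the threshold in any comparison by edgeR's quasi-likelihood test with Benjamini-Hochberg adjustment at 0.05. Between old ouabain and old vehicle livers 0 of 6 passed, where 1.84% of all tested genes did (0.851% lower), and 1 of 6 (Ddit3) had an unadjusted p below 0.05, where 20.1% of all tested genes did. Between old vehicle and young livers 0 of 6 passed beside 19.2% of all tested genes, and 2 of 6 (Atf4 and Gdf15) had an unadjusted p below 0.05 beside 31.9%. Between old ouabain and young livers 0 of 6 passed beside 1.12% (0.387% lower), and 2 of 6 (Ddit3 and Gdf15) had an unadjusted p below 0.05 beside 16.5%. DESeq2 and limma voom also called 0 of 6 in each comparison. The median log2 fold change of the 6 was 0.16 for ouabain against vehicle, 0.05 for vehicle against young and -0.05 for ouabain against young, and that of all tested genes was -0.01 in each. The 3 comparisons share libraries pairwise, so their values are not independent of one another.

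**Figure D2:**
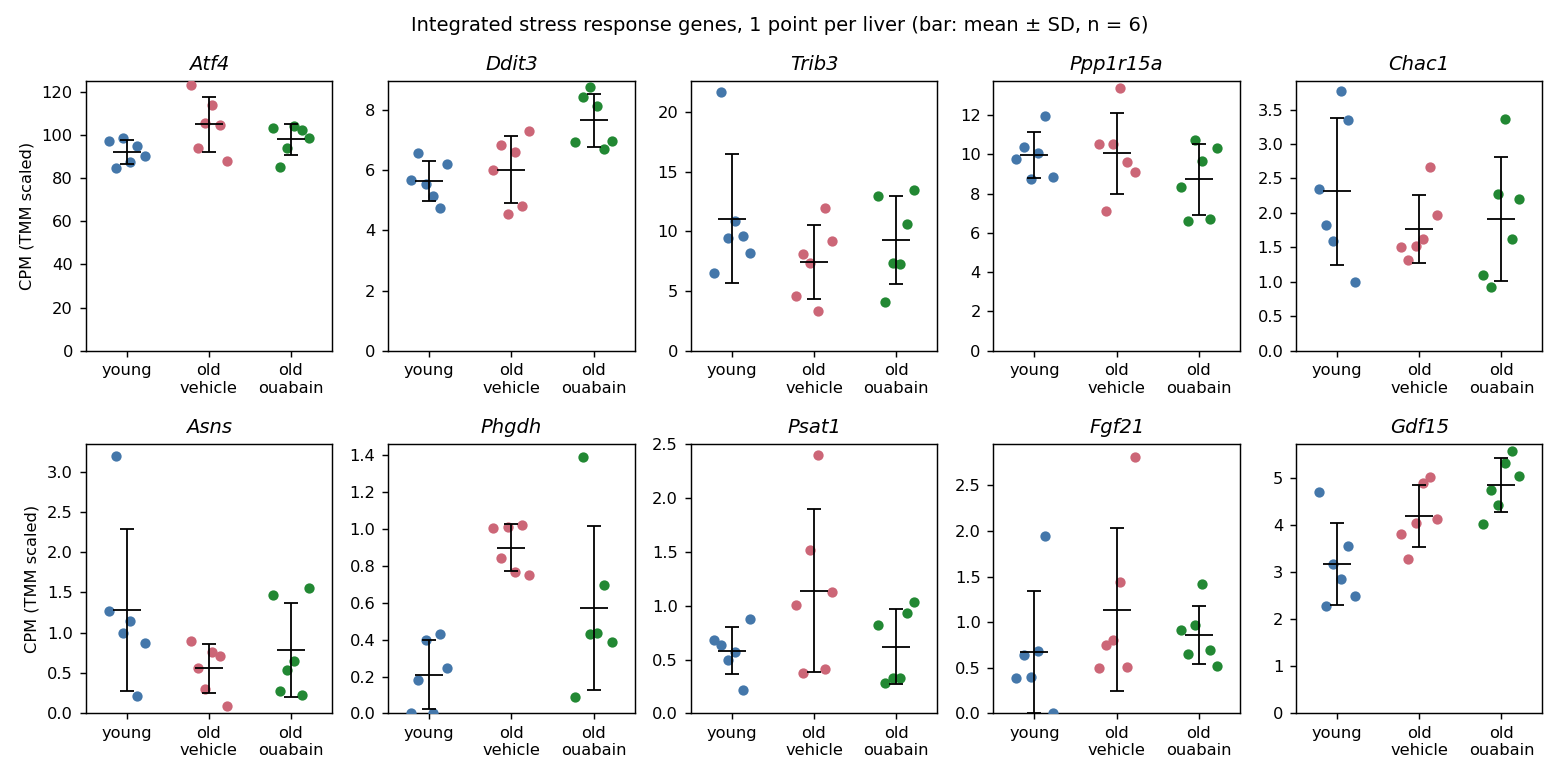
TMM-scaled CPM of each of the 10 genes, 1 point per liver, in young, old vehicle and old ouabain livers; bars give the mean and SD of 6 livers. Phgdh is the only panel in which the vehicle and young points do not overlap, and Ddit3 the only one in which the ouabain points all lie above the young ones.

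Atf4 encodes the transcription factor that carries the response to its target genes. It had 442 to 1228 counts per library, the deepest coverage of the set. Its level was 85.0 CPM in the lowest, 92.7 at the median and 98.5 in the highest young liver, 88.2, 105 and 123 CPM in vehicle livers, and 85.1, 100.5 and 104 CPM in ouabain livers. The groups overlapped, with 4 of 6 vehicle livers above every young liver and all 6 ouabain livers below the vehicle median. Vehicle livers averaged 1.14 times the young level (95% interval 1.01 to 1.28, log2 fold change 0.19, SE 0.08, edgeR adjusted p = 0.114). Ouabain livers averaged 0.933 times the vehicle level (0.830 to 1.05, log2 fold change -0.10, adjusted p = 0.511). The vehicle and young difference passed in the fit without old vehicle replicate 6, which has the lowest Atf4 level of its group (log2 fold change 0.24, adjusted p = 0.0316).

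Ddit3 encodes CHOP, a C/EBP family factor induced through ATF4 that promotes cell death under lasting stress. Its level in young livers ran from 4.75 through a median of 5.61 to 6.56 CPM. Vehicle livers held 4.55, 6.31 and 7.32 CPM, and ouabain livers 6.72, 7.57 and 8.76 CPM. All 6 ouabain livers lay above all 6 young livers, an ordering found upwards in 1.47% of tested genes, while 3 of 6 lay above all vehicle livers. The mean was 7.67 ± 0.886 CPM with ouabain and 6.02 ± 1.12 CPM with vehicle (SD, n = 6 each), a fold of 1.28 (95% interval 1.05 to 1.55, log2 fold change 0.35, SE 0.13) whose adjusted p of 0.146 by edgeR missed the threshold. Against young livers, at 5.65 ± 0.670 CPM, the fold was 1.36 (1.12 to 1.65, log2 fold change 0.45, adjusted p = 0.105). Leaving out each library in turn kept the adjusted p between 0.0787 and 0.260 for ouabain against young and between 0.0890 and 0.287 for ouabain against vehicle. In the annotation used here (GENCODE M21) the exons of Ddit3 overlap those of Mars by 68 bases on the opposite strand, and since the sources used here give no strand setting for the counting, reads from the shared bases cannot be assigned with certainty.

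Trib3 and Ppp1r15a restrain the response: the pseudokinase TRIB3 is an ATF4 target that dampens ATF4 and CHOP activity, and PPP1R15A (GADD34) directs a phosphatase to eIF2. Trib3 ranged from 6.55 through 9.52 to 21.7 CPM in young livers, from 3.35 through 7.76 to 12.0 CPM in vehicle livers and from 4.09 through 9.01 to 13.4 CPM in ouabain livers. The groups overlapped widely, and young replicate 2, with 238 counts, stood apart from the rest of its group. The fitted fold was 0.670 for vehicle against young (95% interval 0.407 to 1.10, adjusted p = 0.258) and 1.24 for ouabain against vehicle (0.743 to 2.06, adjusted p = 0.660). Trib3 varied between livers of a group more than most genes, with a biological coefficient of variation of 39.6% that lies at the 94.9th percentile of tested genes, whose median was 15.1%. For genes of its abundance the fitted trend was 18.3%. Chac1 had 33.1% (91.3rd percentile), close to the trend of 29.0% at its lower abundance, and Atf4 had 11.1% (16.7th percentile) beside a trend of 15.9%.

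Ppp1r15a had group means of 9.96 ± 1.19 (young), 10.05 ± 2.07 (vehicle) and 8.73 ± 1.80 CPM (ouabain; SD, 6 livers each). It ran from 8.73 through 9.91 to 12.0 CPM in young livers, from 7.12 through 10.1 to 13.4 CPM in vehicle livers and from 6.59 through 9.00 to 10.7 CPM in ouabain livers, and the groups overlapped. The fold was 1.01 for vehicle against young (95% interval 0.818 to 1.24, edgeR adjusted p = 0.971) and 0.874 for ouabain against vehicle (0.707 to 1.08, adjusted p = 0.478). Its exons overlap those of Tulp2 by 12 bases on the opposite strand.

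Chac1, which degrades glutathione and is transcribed under ATF4, had 7 to 33 counts per library. It ran from 0.996 through 2.08 to 3.77 CPM in young livers, from 1.31 through 1.57 to 2.66 CPM with vehicle and from 0.929 through 1.91 to 3.37 CPM with ouabain, and the groups overlapped. The fold was 0.765 for vehicle against young (0.483 to 1.21, adjusted p = 0.431) and 1.08 for ouabain against vehicle (0.672 to 1.74, adjusted p = 0.884), both by edgeR.

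**Figure D3:**
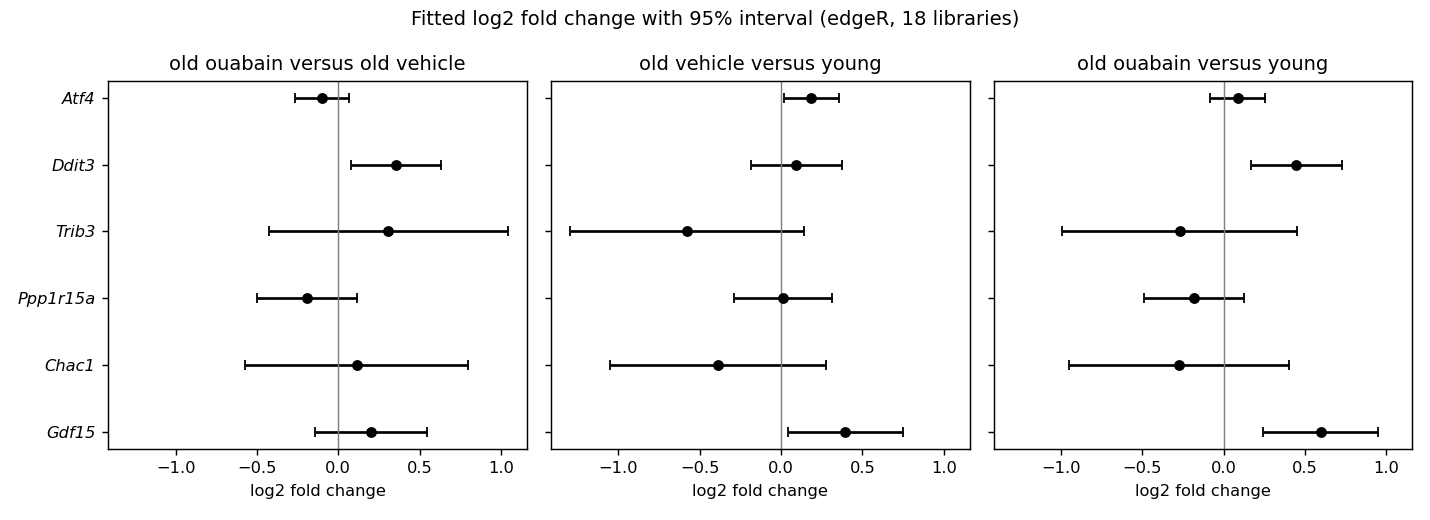
Fitted log2 fold change with its 95% interval for the 6 genes tested, in each of the 3 comparisons (edgeR, 18 libraries in 1 fit); the vertical line marks 0. The intervals of Trib3 and Chac1 are widest, those of Atf4 narrowest, and those of Ddit3 and Gdf15 against young lie above 0 after ouabain although neither gene passed the threshold across all genes.

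The genes for amino acid synthesis gave few counts. Asns, which makes asparagine, had 1 to 35 counts per library and group means of 1.28 ± 1.01 (young), 0.557 ± 0.306 (vehicle) and 0.787 ± 0.581 CPM (ouabain; SD, 6 livers each). The exact permutation test over livers gave p = 0.0714 for vehicle against young and p = 0.403 for ouabain against vehicle (two-sided, 924 groupings, smallest possible p 0.00216). The vehicle and young difference in means, -0.723 CPM, was -0.341 CPM without young replicate 2, which held 35 of the 77 young counts. It was -0.942 CPM without young replicate 5, the lowest young liver at 0.216 CPM, where the exact permutation p was 0.00433. Leaving out the lowest liver of the higher group widens the difference by construction, so that p adds no support. Within the full set all 6 vehicle livers lay below the young median of 1.07 CPM. Psat1, the aminotransferase of serine synthesis, had means of 0.580 ± 0.219, 1.14 ± 0.755 and 0.619 ± 0.346 CPM in young, vehicle and ouabain livers. The groups overlapped, with exact permutation p = 0.104 for vehicle against young and p = 0.130 for ouabain against vehicle. Without vehicle replicate 4, at 2.39 CPM, these differences in means went from 0.557 to 0.306 CPM and from -0.518 to -0.268 CPM. Without vehicle replicate 2, the lowest vehicle liver at 0.375 CPM, their exact permutation p-values were 0.0325 and 0.0476. Without vehicle replicate 5, the next lowest at 0.409 CPM, the first was also below 0.05. Leaving out a low vehicle liver widens both differences by construction, so these p-values add no support.

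Phgdh, the enzyme of the first step of serine synthesis from glucose, was higher in every vehicle liver than in any young liver, at a very low level in both. Each of the 6 vehicle libraries held 8 to 10 counts (0.750 to 1.02 CPM, median 0.923), whereas the 6 young libraries held 0 to 4 counts each and 12 in all, with 0 in 2 of them. No vehicle liver overlapped a young liver, an ordering found upwards in 2.02% of 4302 genes that were also too low for the fit but averaged at least 1 count per library. The mean was 0.899 ± 0.128 CPM with vehicle and 0.210 ± 0.187 CPM in young livers (SD, n = 6 each), and the exact permutation p of 0.00216 is the smallest this design allows, among 12 such tests of the 4 low genes. When all genes were fitted without the filter, edgeR gave a log2 fold change of 2.02 (SE 0.53, adjusted p = 0.0105 over all genes). Many genes passed in this comparison, 1999 to 2904 over the 8 other settings, of which the fit without the filter was 1. A count of 0 in a young library allows up to 3 counts, which is 0.293 CPM in replicate 1 and 0.343 CPM in replicate 4, the libraries with 0 Phgdh counts. These limits cover counting error only.

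Ouabain livers held 1, 15, 4, 4, 3 and 3 Phgdh counts in replicates 1 to 6. Replicate 2 lay above every vehicle liver and the other 5 lay below every vehicle liver, and the mean of 0.573 ± 0.446 CPM gave an exact permutation p of 0.115 against vehicle (n = 6 each). Without that replicate the difference in means was -0.494 CPM, with an exact permutation p of 0.00216. That p is the smallest possible there, because the 5 livers left all lay below every vehicle liver. Against young livers the difference in means was 0.363 CPM with an exact permutation p of 0.0671. It was 0.460 CPM without ouabain replicate 1, the lowest liver of its group (exact permutation p = 0.0152). It was 0.197 CPM without ouabain replicate 2, the highest of its group, and over all fits without 1 library the exact permutation p reached 0.160. Markers of immune cells were also higher in vehicle than in young livers, in the ranges given above, and their relation to Phgdh was not tested.

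Fgf21 and Gdf15 encode secreted hormones of the response. FGF21 acts on fat and brain through KLB and FGF receptors, and GDF15 acts on the hindbrain receptor GFRAL. Fgf21 had 0 to 18 counts in young, 5 to 30 in vehicle and 3 to 13 in ouabain libraries, with means of 0.676 ± 0.667, 1.14 ± 0.889 and 0.861 ± 0.320 CPM (SD, n = 6 each). The groups overlapped, and the exact permutation p was 0.355 for vehicle against young and 0.632 for ouabain against vehicle. The highest values came from single livers, young replicate 5 at 1.94 CPM and vehicle replicate 6 at 2.81 CPM, and without the latter the ouabain mean was above the vehicle mean by 0.0525 CPM and the vehicle and young difference went from 0.461 to 0.132 CPM. Without young replicate 5 that difference was 0.715 CPM.

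Gdf15 was lowest in young livers, at 2.28 CPM in the lowest, 3.02 at the median and 4.69 in the highest. Vehicle livers had 3.28, 4.09 and 5.01 CPM, and ouabain livers 4.03, 4.89 and 5.56 CPM. Every vehicle and every ouabain liver lay above the young median, but young replicate 1, at 4.69 CPM, lay among the old livers. The fold of vehicle over young was 1.32 (95% interval 1.03 to 1.68, log2 fold change 0.40, SE 0.17, edgeR adjusted p = 0.109) and that of ouabain over young 1.51 (1.18 to 1.93, log2 fold change 0.60, SE 0.17, adjusted p = 0.0929). Without young replicate 1, the highest of its group, both passed, at log2 fold changes of 0.55 (edgeR adjusted p = 0.0186) and 0.74 (adjusted p = 0.0165). Calls over all genes rose in that fit as well. They went from 2733 to 3061 for vehicle against young, and from 160 to 612, of 14391 genes tested, for ouabain against young. Ouabain and vehicle livers differed by a fold of 1.15 (0.904 to 1.46, adjusted p = 0.526).

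The 10 genes did not move as a block from liver to liver. Over the 18 livers, with log2 CPM taken as the deviation from the group mean, the 45 pairs of these genes had Pearson correlations of -0.50 (Asns and Phgdh) to 0.53 (Chac1 and Fgf21), with a median of -0.04. Atf4 and Ddit3 had r = -0.42. These are descriptions without a test, the points share library depth and scaling, and 4 of the genes rest on few counts.

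Among 12209 genes compared in the same way, the 3 whose deviations were most like those of Trib3 were Klhl24 (r = 0.91, rho = 0.91), Lpcat3 (r = 0.89, rho = 0.86) and Ireb2 (r = 0.88, rho = 0.85), with r of 0.88, 0.83 and 0.84 without the 2 livers farthest from the median of Trib3. For Chac1 they were Lrig1 (r = 0.87), Pik3r2 (0.79) and Serpina3e-ps (0.76), and for Gdf15 they were Dctn3 (0.87), Nudcd2 (0.83) and Alkbh6 (0.82). For Ddit3 they were Tab1 (0.79), Nxn (0.79) and Slc9a3r2 (0.76), for Atf4 they included Asap3 (0.79) and Ddx1 (0.78), and for Ppp1r15a they were Slc11a2, Pvr and Ddx55 (0.76 each). Without the 2 livers farthest from the median of the gene in question, r was lower for several of these, such as 0.73 for Dctn3 with Gdf15, 0.60 for Slc11a2 with Ppp1r15a and 0.68 for Asap3 with Atf4. None of the 6 tested genes was among the nearest genes of another, and the 4 genes below the filter were not among those compared. These nearest genes are the top of many correlations over 18 livers.

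Around the 10 genes, 5 genes of the pathway's upstream control passed between young and vehicle livers and 1 after ouabain. From here on, "with age" names the comparison of vehicle with young livers. Age and handling differed together in it and cannot be told apart. The 4 eIF2 kinase genes did not pass in any comparison. Of 19 genes for the kinases, eIF2, eIF2B and their regulators, 1 rose and 4 fell between young and vehicle livers, where 10.9% of tested genes rose and 8.32% fell. Impact, whose protein inhibits the kinase GCN2, went from 9.81 ± 1.72 to 15.6 ± 2.87 CPM (SD, n = 6 each, log2 fold change 0.67, edgeR adjusted p = 0.00206). Dnajc3 (P58IPK), an endoplasmic reticulum co-chaperone, fell to 198 ± 23.8 CPM with vehicle against 294 ± 29.9 CPM in young livers (-0.57 on the log2 scale, adjusted p = 0.000465), and the eIF2B subunits Eif2b1 (-0.36) and Eif2b5 (-0.25) fell too, the latter in only 9 of 18 fits without 1 library. The count of 5 was 3 without any 1 of young replicates 3, 5 and 6 or vehicle replicates 2, 3 and 5, and 7 without young replicate 2. After ouabain, 1 of the 19 fell and none rose, where 0.851% of tested genes fell. It was Impact, at 9.69 ± 1.67 CPM against 15.6 ± 2.87 CPM with vehicle (log2 fold change -0.68, adjusted p = 0.0173), a call that ended without ouabain replicate 3 and that uses the same vehicle libraries as the age comparison.

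Among ATF4's partners, the bZIP factors, 3 of 12 rose and 4 fell between young and vehicle livers, where 10.9% of tested genes rose and 8.32% fell. Cebpd, an inflammatory C/EBP factor, was at 4.10 ± 1.44 CPM in young livers and rose to 9.96 ± 1.84 CPM with vehicle (1.28 on the log2 scale, adjusted p = 7.57e-05), and Jdp2, an AP-1 repressor, rose by 1.47 on the log2 scale. Xbp1, the factor of the IRE1 branch, fell by 0.76 and Cebpa, a hepatocyte C/EBP factor, fell by 0.55 on the log2 scale. With ouabain, Cebpd was at 5.76 ± 0.716 CPM against 9.96 ± 1.84 CPM with vehicle (log2 fold change -0.78, edgeR adjusted p = 0.0289), the 1 call of 12 beside 1.84% of tested genes, which ended when any 1 of 7 libraries was left out (vehicle replicates 1, 3 and 4 and ouabain replicates 3 to 6), while up to 4 of the 12 passed without vehicle replicate 6. Cebpa, with a log2 fold change of 0.53, had an adjusted p of 0.0503. Atf5, a factor translated like Atf4, had no call in either comparison (log2 fold change 0.26, adjusted p = 0.175 with age, and -0.15, adjusted p = 0.533 with ouabain).

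Among 30 other reported ATF4 targets tested, 3 rose and 3 fell between young and vehicle livers, a share close to the 19.2% of all tested genes, with a median log2 fold change of 0.16 beside -0.01 for all tested genes. Slc1a5, a glutamine transporter, rose from 3.60 ± 1.24 to 7.89 ± 3.05 CPM (log2 fold change 1.12, edgeR adjusted p = 0.00257) and the lipoprotein receptor gene Vldlr from 9.18 ± 4.47 to 22.7 ± 8.44 CPM (1.30, adjusted p = 0.00614). The asparaginyl-tRNA synthetase gene Nars (-0.30) and the tRNA exportin gene Xpot (-0.32) fell. Cth, an enzyme of cysteine synthesis and the most abundant of the list, had a log2 fold change of 0.48 that did not pass (adjusted p = 0.131). After ouabain, 1 of the 30 fell and none rose, where 0.851% of tested genes fell. This was Slc38a2 (SNAT2), an amino acid transporter classically induced by amino acid shortage, at 96.8 ± 13.8 CPM against 173 ± 44.7 CPM with vehicle (log2 fold change -0.84, SE 0.18, adjusted p = 0.0217). That call ended without ouabain replicate 4 or 6, and also without vehicle replicate 4 and ouabain replicate 5 together (adjusted p = 0.0618).

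Among the amino acid groups, asparagine and glutamine metabolism had the highest share of calls with age (42.9% of 7 genes), where 19.2% of all tested genes passed. The shares were 11.8% in serine and one-carbon metabolism, 8.33% in amino acid transporters and 15.0% in tRNA synthetases. In serine and one-carbon metabolism, 1 of 17 tested genes rose with age (Agxt, which detoxifies glyoxylate, 0.50 on the log2 scale, a call kept in only 7 of 18 fits without 1 library) and 1 fell (Glyctk, glycerate kinase, -0.54), and none passed after ouabain. Gnmt, the abundant liver glycine methyltransferase, had log2 fold changes of 0.21 with age and 0.04 with ouabain, neither past the threshold. In asparagine and glutamine metabolism, Got1, the cytosolic aspartate aminotransferase, rose with age from 238 ± 58.8 to 491 ± 168 CPM (log2 fold change 1.05, edgeR adjusted p = 0.00122), the asparaginase gene Asrgl1 rose by 0.42 and Aspg fell by 0.35 on the log2 scale, of 7 genes. Of 12 amino acid transporters, Slc1a5 rose with age and Slc38a2 fell with ouabain, where 0.851% of tested genes fell. Both genes are also in the target list. Of 20 cytosolic tRNA synthetase genes, 3 (15.0%) fell with age beside 8.32% of tested genes, Nars, Iars (-0.41) and Mars (-0.43), and 19 of the 20 had negative log2 fold changes with a median of -0.15. None of the 20 passed after ouabain, where 17 were positive with a median of 0.08.

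The other branches of the endoplasmic reticulum stress response, run by XBP1 and ATF6, control chaperones and protein degradation. Of 18 of their target genes, 14 fell and none rose between young and vehicle livers (median log2 fold change -0.58), where 8.32% of tested genes fell. Dnajb11, a co-chaperone of BiP, fell from 145 ± 25.8 to 85.2 ± 14.2 CPM (log2 fold change -0.76, edgeR adjusted p = 0.000255), and Pdia6, a disulfide isomerase, from 414 ± 46.0 to 273 ± 43.8 CPM (-0.60, adjusted p = 0.000286). Derl3, a factor of endoplasmic reticulum associated degradation, fell from 11.7 ± 11.7 CPM, a mean with as large an SD, to 0.796 ± 0.0956 CPM (-3.86, adjusted p = 0.000195). Leaving out each library in turn left 12 to 14 of the 18 called. Between young and ouabain livers, 3 of 18 fell (Dnajc3, Dnajb11 and Sel1l), where 0.387% of tested genes fell. That count was 0 without young replicate 3 or 5 or ouabain replicate 2 or 5, 1 without young replicate 4 or 6 or ouabain replicate 6 and up to 4 without another library, and the 3 calls held in 14, 11 and 9 of 18 such fits. Between vehicle and ouabain livers none of the 18 passed by edgeR, where 16 were positive with a median log2 fold change of 0.21. DESeq2 called 9 of the 18 between young and ouabain livers. The difference between the lists was not tested, and the lists share genes, among them Dnajc3, Nars, Slc38a2 and Slc1a5.

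**Figure D4:**
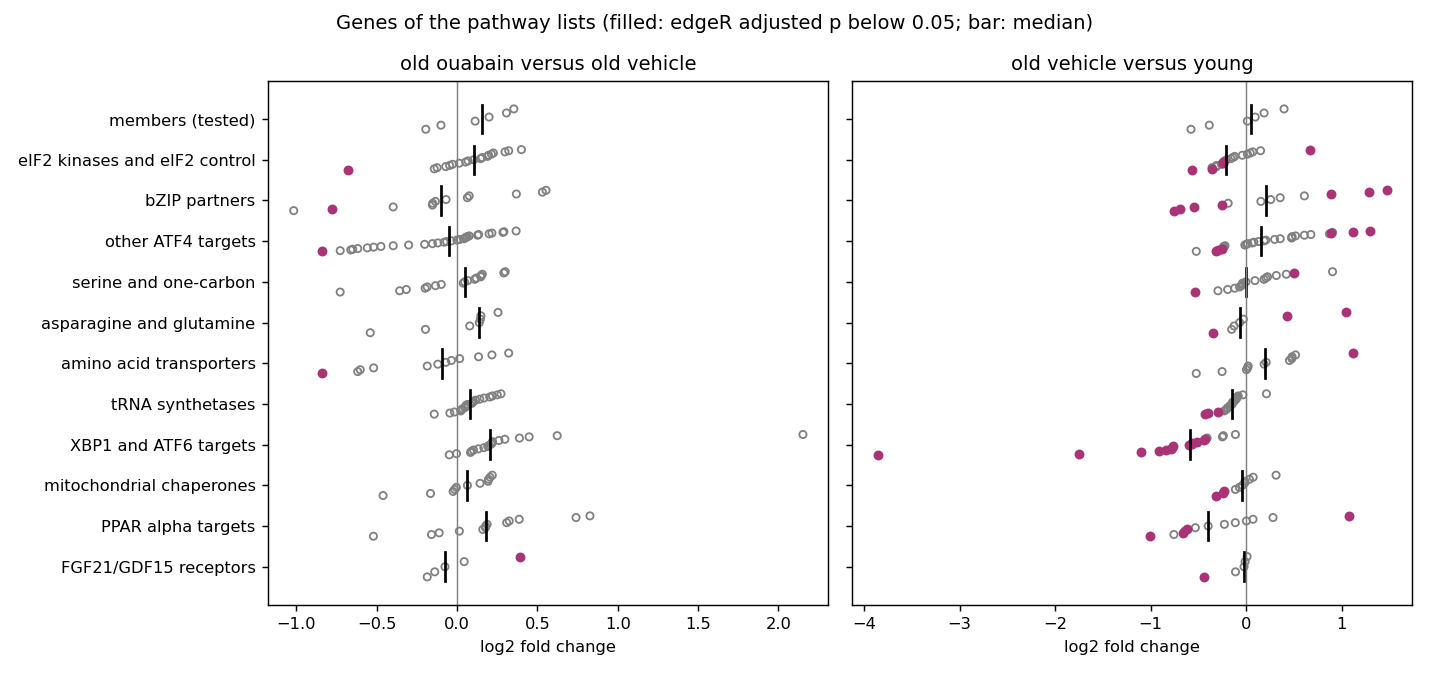
Log2 fold change of every tested gene of the 10 genes and of the 11 lists around them, for old ouabain against old vehicle (left) and old vehicle against young (right); filled points passed an edgeR adjusted p of 0.05 and the vertical bar is the list's median. In the right panel the XBP1 and ATF6 targets lie to the left of 0 with 14 of 18 filled, while none of the 6 tested stress response genes is filled in either panel, and the horizontal scales of the panels differ.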

How the data were processed

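The deposited values are raw read counts per gene, in 1 table, for 18 mouse liver libraries. The authors used TopHat2 2.0.11 with build mm9 and featureCounts, per the submitters' processing notes; the strand setting, the annotation and the rule for reads that match several genes were not given in the sources used here. Groups came from the sample titles, which number replicates without naming animals, so p-values measure the spread between these samples.

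Counts as deposited were fitted with edgeR 4.0.16 in R 4.3.3 (TMM factors, its filter at a minimum count of 10, 18 libraries in 1 fit, two-sided robust quasi-likelihood F-test, Benjamini-Hochberg adjusted p below 0.05 over 14226 genes). Standard errors are approximate. The 4 genes below the filter got exact permutation tests of mean CPM over livers, with p-values as computed and not adjusted. Exon lengths came from GENCODE M21 and promoters from RefSeq, both on GRCm38, not mm9. The only positions printed are those of the promoter stretches on GRCm38, and none are given on mm9. Symbols matched 32897 of 37620 identifiers, and the others held 1.46% of counts. Within groups, the chi-square per gene between libraries was 4.88 to 52.5, where sampling noise gives 1.

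The 10 genes and the 11 lists were chosen with earlier results of these data known. From each list up to 4 genes that passed were named, smallest adjusted p first, and some abundant ones that did not; some genes these rules select are left out of the text. Alternatives were RLE scaling, 2 other filters, DESeq2 1.42.0, limma 3.58.1 voom, only the 12 libraries compared, a replicate block, and leaving out libraries. Replicate numbers did not pair the livers.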

Additional observations from a re-analysis of the deposited data

Results flagged for a closer look

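In 30 sets of 6 livers (10 genes in 3 groups), 3 had a liver far from the rest of its group. Its gap to the nearest liver was above 0.625 of the group's range. Were CPM values normally distributed, which was not tested, chance alone would give about 1 set in 20, or 1.5. All 3 were the highest values of young livers. Asns was at 3.19 CPM in young replicate 2, from 35 counts, and Trib3 was at 21.7 CPM in the same liver, from 238 counts. Without young replicate 2 the log2 fold change of Trib3 for ouabain against young turned from -0.27 to 0.05, and neither value passed. Fgf21 was at 1.94 CPM in young replicate 5, from 18 counts.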

How the results depend on the processing

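Between ouabain and vehicle 0 genes passed an adjusted p of 0.05 in every fit, of 6 to 8 tested with the filter and 10 without it. Phgdh had an exact permutation p of 0.00216 without ouabain replicate 2, its only ouabain liver above the vehicle livers. Between vehicle and young the number that passed was 1 without the filter on low counts (Phgdh) and 0 to 1 with each library left out (Gdf15 without young replicate 1, Atf4 without vehicle replicate 6), and between ouabain and young it was 0 to 1 (Gdf15 without young replicate 1). The count over all genes was less stable: for ouabain against vehicle (262) it was 599 with DESeq2, 85 without vehicle replicate 4 and ouabain replicate 5, and 69 to 642 with 1 library left out. For ouabain against young (160) it was 466 with DESeq2, 333 with only the 12 libraries compared, 103 without those 2 libraries and 51 to 612 with 1 left out. For vehicle against young (2733) it was 2085 to 3061 with 1 left out and 1999 to 2904 over the 8 other settings, among them the fit without the filter. Same-numbered livers did not deviate together (correlations of -0.136 to 0.158, above 0.1 in 2, 1 and 0 of 6 pairs in the 3 comparisons). The replicate block gave 241 genes for ouabain against vehicle, 2522 for vehicle against young and 71 for ouabain against young, and called 0 of the 6 genes tested. Some small differences changed sign, none of them past the threshold; the cause was not tested. Chac1, ouabain against vehicle, had a log2 fold change of -0.0048 with voom and -0.14 to 0.26 with 1 library left out. Ppp1r15a, vehicle against young, had -0.0042 without the filter, -0.00895 with voom, -0.0112 with the replicate block, -0.0872 without vehicle replicate 4 and ouabain replicate 5, and -0.0881 to 0.0973 with 1 left out. Trib3, ouabain against young, ran from -0.412 to 0.0451. In mean CPM, the Fgf21 difference between ouabain and vehicle ran from -0.403 to 0.0525 with 1 left out, and that of Psat1 between ouabain and young from -0.0458 to 0.106, and was -0.0232 without those 2 libraries. Depth limits the low genes most: 1 count was worth 0.091 to 0.232 CPM, so Asns, Fgf21, Phgdh and Psat1 rest on 0 to 35 counts a library, and a miss of the threshold there does not show equal levels.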

Other observations

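Fgf21 transcription in liver is also driven by the nuclear receptor PPAR alpha, so 13 genes of that receptor's programme were set beside it. Between young and vehicle livers 1 rose and 3 fell, where 10.9% of tested genes rose and 8.32% fell, with a median log2 fold change of -0.40 beside -0.01 for all tested genes. Pdk4, a brake on glucose oxidation, rose from 4.85 ± 1.29 to 10.2 ± 3.48 CPM (SD, n = 6 each, log2 fold change 1.08, edgeR adjusted p = 0.00351). Among those that fell were the peroxisomal thiolase gene Acaa1b (log2 fold change -1.01, adjusted p = 0.00529) and the receptor gene Ppara (-0.67, adjusted p = 0.023). The count of 4 ran from 3 to 8 with each library left out, the highest without vehicle replicate 6. None of the 13 passed between ouabain and vehicle livers, where 10 were positive with a median of 0.18, though 3 did without vehicle replicate 6.

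Of 5 tested receptor genes for FGF21 and GDF15, 1 passed with age and 1 with ouabain, where 19.2% and 1.84% of tested genes did. The share with age, 20%, is close to that of all tested genes. Both calls were Fgfr3, which fell with age (log2 fold change -0.45, edgeR adjusted p = 0.00331). It was at 34.0 ± 5.14 CPM with ouabain against 25.8 ± 2.53 CPM with vehicle (0.39, adjusted p = 0.0455). The second call held in only 6 of 18 fits without 1 library, and both use the same vehicle libraries. Fgfr4, the most abundant gene of that list, had log2 fold changes of -0.01 with age and 0.04 with ouabain, neither past the threshold. Which of the listed receptors FGF21 uses in liver was not examined. Of 11 mitochondrial chaperone and protease genes, Afg3l2 (-0.32), Lonp1 (-0.24) and Trap1 (-0.24) fell with age on the log2 scale, beside 8.32% of tested genes, and none passed with ouabain (2 did without vehicle replicate 6). The Trap1 call held in 9 of 18 fits without 1 library and 4 of 8 other settings, and that of Lonp1 in 18 and 6.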
